A study of Mus musculus with 34 samples.

Results

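Glycolysis and the pentose phosphate pathway were followed through 37 genes in CD4+ spleen cells. The cells came from 5 inbred strains of mice and were either untreated or stimulated for 4 h. The genes were taken from a list of glucose and lactate transporters, the enzymes of both pathways and the enzymes that set their flux. Each gene was read from its probe set with a single gene symbol, the brightest over all arrays where there were several. Of the 37 genes, 32 had such a probe set, out of 19938 genes on the array, and 31 were bright enough to be tested. Aldoc, the brain aldolase, was left out by the limit on dim genes, because its highest group mean of 5.25 lay below 5.327, the median of all log2 intensities. Hk3 was the dimmest gene kept, with a highest group mean of 5.98. Gapdh was listed only on 25 probe sets shared with other genes. Gapdh, Gpi1, Eno1, Pfkfb1 and G6pdx were not analysed here.

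The mice were 8-week-old females of the strains 129X1/SvJ, A/J, C57BL/6J, Balb/c and DBA/2J, with no transgene or deletion named. CD4+ cells were taken from spleen with magnetic beads. The untreated cells (T0) are called basal, and the stimulated cells (T1) had 10 ng/ml phorbol 12-myristate 13-acetate (PMA) and 1 uM ionomycin for 4 h, a drug pair that activates protein kinase C and raises calcium without the T cell receptor. A/J and C57BL/6J had 4 arrays at each time and the other strains 3, giving 34 arrays in 10 groups. The medium held pyruvate. The design text calls T0 basal while the protocol may mean that both portions were cultured, so it is unsettled whether T0 cells were cultured too. If they were not, culture and drugs cannot be told apart. The replicates are labelled biological, but nothing says which came from separate mice, so p-values measure the spread between these samples.

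Resting T cells take up little glucose and burn much of it in mitochondria, whereas activated T cells take up more glucose, turn much of it into lactate and draw carbon off for nucleotides and amino acids. The steps from glucose to pyruvate are each run by a small family of isoenzymes that differ in affinity, regulation and usual tissue. Enzymes of fructose 2,6-bisphosphate set the speed of phosphofructokinase, and pyruvate dehydrogenase kinases keep pyruvate out of the mitochondrial cycle. The pentose phosphate pathway has an oxidative arm that makes NADPH and a non-oxidative arm that exchanges sugars with glycolysis and yields ribose 5-phosphate.

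CD4 T cell markers were bright in every group, with a mean log2 intensity over 9 of the 10 listed genes of 9.37 to 9.70 at T0 and 8.77 to 9.35 at T1. Markers of other cells were present too. The mean over 11 of 12 B cell markers was highest at T0 in 129X1/SvJ (8.40) and DBA/2J (8.36), above Balb/c (7.68), C57BL/6J (7.57) and A/J (7.37), and it lay at 6.28 to 6.63 at T1. The mean over 10 neutrophil markers ran from 5.18 to 6.78 at T0 and from 4.69 to 5.24 at T1. The mean over 12 monocyte and macrophage markers ran from 6.44 to 6.76 at T0 and from 5.75 to 6.48 at T1. The mean over 9 CD8 T and NK cell markers stayed between 4.69 and 5.43 in all groups. Erythroid markers (7 of 11 listed) separated the strains at T0, with means of 8.40 (A/J), 8.00 (DBA/2J), 7.68 (Balb/c), 6.74 (C57BL/6J) and 5.29 (129X1/SvJ). The array labelled Balb/c T1 replicate 2 had the lowest mean correlation with its group, 0.948.

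The promoters of the genes with the largest changes are shown first, as a description, and no test of expression used them. Glycolysis genes are classical targets of Myc, which binds the E-box CACGTG, and of hypoxia-inducible factor, which binds elements with the core ACGTG. The stretches are the 250 bases before the transcription start in RefSeq (assembly GRCm38.p6), 5′ to 3′ on the gene's strand, with every CACGTG or ACGTG on either strand in capitals. They are chr6:82774455-82774704 on the minus strand for Hk2, chr3:104638414-104638663 on the plus strand for Slc16a1, chr19:41911621-41911870 on the plus strand for Pgam1, chr6:70792176-70792425 on the minus strand for Rpia and chr11:95041372-95041621 on the minus strand for Pdk2, whose more upstream of 2 listed starts was taken.
Hk2: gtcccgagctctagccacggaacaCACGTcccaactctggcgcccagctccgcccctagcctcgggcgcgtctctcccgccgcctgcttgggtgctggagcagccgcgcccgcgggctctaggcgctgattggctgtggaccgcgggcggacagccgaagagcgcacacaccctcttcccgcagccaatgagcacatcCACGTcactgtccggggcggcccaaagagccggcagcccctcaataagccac
Slc16a1: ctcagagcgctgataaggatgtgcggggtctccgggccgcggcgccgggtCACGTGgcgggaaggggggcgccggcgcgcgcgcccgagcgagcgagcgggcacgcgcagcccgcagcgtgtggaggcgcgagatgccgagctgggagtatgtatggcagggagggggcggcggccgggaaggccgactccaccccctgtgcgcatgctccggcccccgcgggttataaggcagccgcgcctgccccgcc
Pgam1: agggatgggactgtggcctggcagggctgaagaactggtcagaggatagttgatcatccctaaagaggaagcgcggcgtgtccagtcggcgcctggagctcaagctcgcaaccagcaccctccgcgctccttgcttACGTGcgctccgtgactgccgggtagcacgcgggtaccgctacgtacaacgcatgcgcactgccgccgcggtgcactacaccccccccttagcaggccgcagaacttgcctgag
Rpia: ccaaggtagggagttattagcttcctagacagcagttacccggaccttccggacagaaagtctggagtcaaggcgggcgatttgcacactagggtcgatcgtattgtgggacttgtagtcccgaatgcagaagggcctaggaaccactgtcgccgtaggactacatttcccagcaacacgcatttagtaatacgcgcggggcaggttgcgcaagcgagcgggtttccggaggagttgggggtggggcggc
Pdk2: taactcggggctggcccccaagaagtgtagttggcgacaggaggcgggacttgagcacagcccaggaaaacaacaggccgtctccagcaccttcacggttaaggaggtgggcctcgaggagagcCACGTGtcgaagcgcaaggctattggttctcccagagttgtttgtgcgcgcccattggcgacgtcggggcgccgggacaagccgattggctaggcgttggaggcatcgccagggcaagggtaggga
Slc16a1, which rose, and Pdk2, which fell, each held the full E-box. The stretch before the other listed start of Pdk2 held neither motif. Hk2 held 2 copies of the core read on the opposite strand, Pgam1 held 1 copy, and the Rpia window held neither motif. Promoters were listed for 36 of the 37 genes, 56 starts in all. CACGTG was found in 6 of these 56 stretches, or 10.7%, against 6.02% of all 32851 promoters of the same length. Because every CACGTG reads ACGTG on both strands, the second search holds the first. ACGTG on either strand was found in 18 of the 56, or 32.1%, against 16.6% of all promoters. Some stretches of the same gene overlap, such as those of Aldoa that each held ACGTG. The promoters compared were not matched for their share of G and C bases. At least 1 start held ACGTG in 9 of 15 genes that rose, 4 of 11 that fell and 1 of 4 not called for the mean change. For CACGTG the counts were 3 of 15, 3 of 11 and 0 of 4. The shares of all promoters are per start, so no share of all genes stands beside these counts by gene. The AP-1 motif TGANTCA, bound by factors that PMA activates, was found in 1 of the 56, or 1.8%, against 6.75% of all promoters, and that stretch belonged to Aldoa. A match is a description of letters and not a bound site.

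The comparison of T1 with T0, averaged over the 5 strains, asks how stimulation changed these genes. Hexokinase 2, the monocarboxylate transporter Slc16a1 and phosphoglycerate mutase Pgam1 rose most, by 2.68, 2.03 and 1.38 on the log2 scale, and the kinase gene Pdk2 had the largest fall, by 1.10. Of the 31 genes tested, 16 rose and 11 fell at a limma adjusted p under 0.05. Over all 11413 genes tested, 82.3% were called, 36.0% higher and 46.3% lower, so the share of members called (27 of 31) was near the background. The median change of the members was 0.15, and that of all genes was -0.07. RMA makes the arrays' distributions alike, so each change is relative to the other genes on the array. A change in a bulk sample can come from fewer cells of a type or less RNA per cell, and these cannot be told apart. From T0 to T1, 9 of 11 B cell markers and 7 of the 8 neutrophil markers tested fell, and of 9 CD4 T cell markers 5 fell and 2 rose. Cd3g fell by 1.66 and Cd4 fell by 0.86. Their part in the changes below was not tested.

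**Figure D1:**
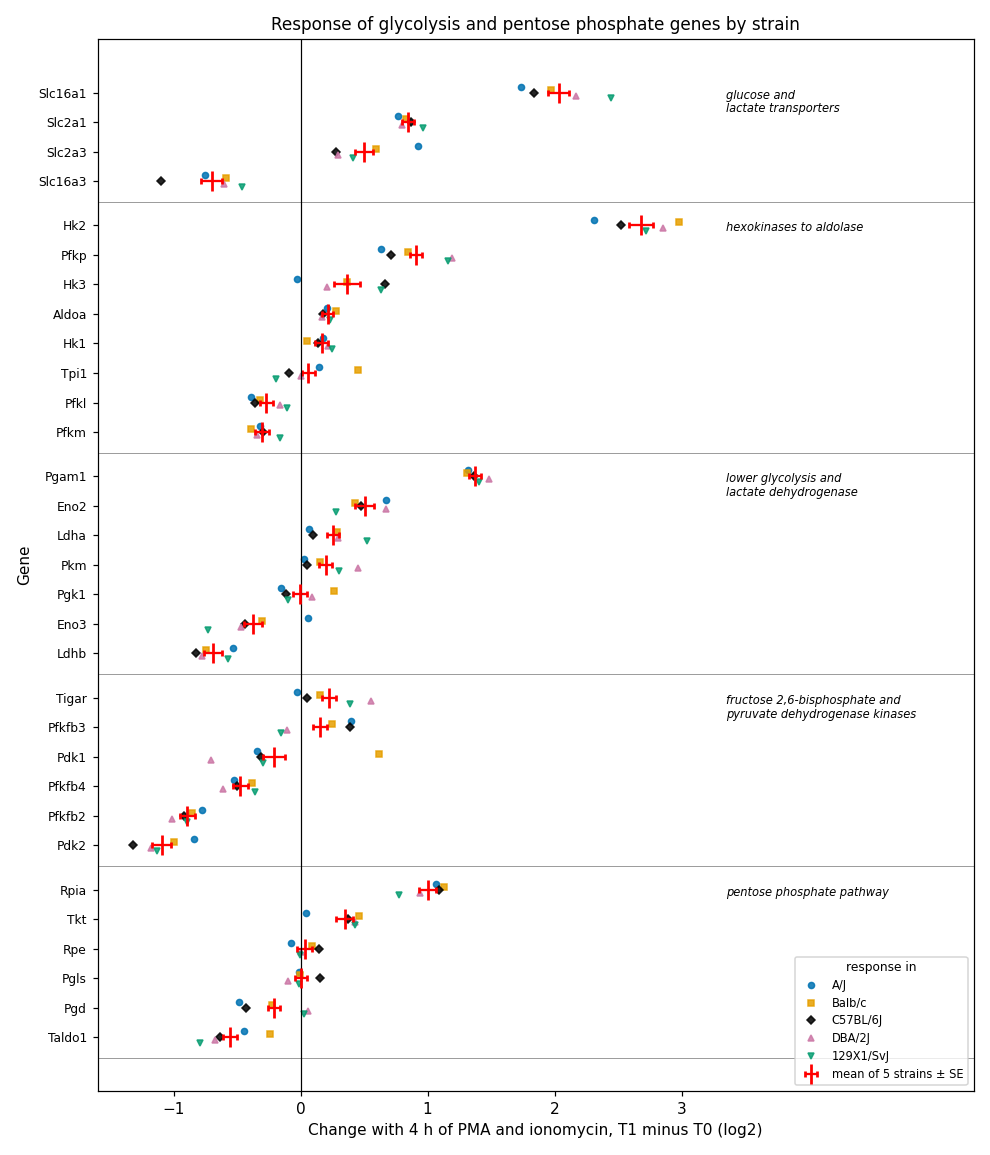
Change from T0 to T1 (log2, horizontal axis) of the 31 genes tested, grouped by role, with 1 symbol per strain and the mean of the 5 strains ± SE in red. Hk2, Slc16a1 and Pgam1 lie above 1 in each strain, and Pdk1 lies above 0 in Balb/c alone.

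Among transporters, 3 rose and 1 fell. Slc16a1 encodes MCT1, which carries lactate and pyruvate across the plasma membrane. Its log2 intensity ran from 7.69 to 9.29 at T0 (median 8.37, 17 arrays) and from 10.12 to 10.65 at T1 (median 10.37, 17 arrays). The groups did not overlap, and the rise of 2.03 ± 0.08 (SE), or 4.09-fold, had an adjusted p of 1.72e-20. Slc2a1, the glucose transporter GLUT1, ran from 8.41 to 8.83 at T0 (median 8.52) and from 8.96 to 9.65 at T1 (median 9.42). Every T1 array again lay above every T0 array, with a rise of 0.85 ± 0.05 (adjusted p = 4.20e-17). Slc2a3, the high-affinity transporter GLUT3, rose by 0.50 ± 0.07 (adjusted p = 2.48e-07), and its times overlapped. The second lactate carrier, Slc16a3 (MCT4), fell by 0.70 ± 0.08 (adjusted p = 3.25e-09) and was lower in 17 of 17 same-numbered pairs. Slc16a1 and Slc16a3 thus moved in opposite directions in each strain.

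From hexokinase to triose phosphate isomerase, 5 genes rose, 2 fell and 1 (Tpi1) was not called for the mean change. Hk2, which commits glucose to the cell by phosphorylating it and can sit on mitochondria, ran from 5.78 to 7.02 at T0 (median 6.23) and from 8.37 to 9.68 at T1 (median 8.94). The times were separated by more than 1 log2 unit, and the rise of 2.68 ± 0.09, or 6.40-fold, had an adjusted p of 1.47e-21. Hk3 rose by 0.37 ± 0.10 (adjusted p = 0.0020), although its T0 values of 5.01 to 5.80 lay around the limit for dim genes. Hk1, the housekeeping hexokinase, rose by 0.16 ± 0.05 (adjusted p = 0.0053) and was called in no single strain. Both of its probe sets shared an accession with 16 probe sets listed for Rpl17 together with Hk1. The brightest, 10414661, was set aside because its mean of 12.56 lay within the 11.10 to 13.16 of those 16. The set used had a mean of 7.84. Set 10414661 also followed the mean of the 16 over the arrays (r = 0.55, a description over 34 arrays, against -0.26 for the set used). Set 10414661 had a change of 0.02 (adjusted p = 0.8123), so the call of Hk1 rests on the choice of probe set.

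The phosphofructokinase isoenzymes, which run the main control step of glycolysis, split. Pfkp, the platelet form, ran from 8.60 to 9.22 at T0 (median 8.996) and from 9.55 to 10.08 at T1 (median 9.82). Its times did not overlap, and it rose by 0.91 ± 0.05 (adjusted p = 3.32e-17). Pfkl, the liver form, fell by 0.27 ± 0.05 (adjusted p = 3.10e-05) and was lower in 17 of 17 pairs. Pfkm, the muscle form, fell by 0.31 ± 0.05 (adjusted p = 8.95e-06). Below this step, Aldoa, which splits fructose 1,6-bisphosphate, rose by 0.21 ± 0.04 (adjusted p = 8.71e-05) in 17 of 17 pairs, but by 0.05 (adjusted p = 0.2963) when the gene values were quantile normalized again. Tpi1, which interconverts the 2 triose phosphates, changed by 0.06 (adjusted p = 0.2744), or by 0.14 (adjusted p = 0.0084) under that second normalization. In Balb/c alone Tpi1 was called higher, by 0.45 ± 0.12 (adjusted p = 0.0024). Its response was not called as different between strains in the F test (adjusted p = 0.0761), but was with strain and replicate number as a block (0.0326). Aldoc had T0 values of 4.74 to 5.43 and T1 values of 4.58 to 5.18, all near or below the limit.

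**Figure D2:**
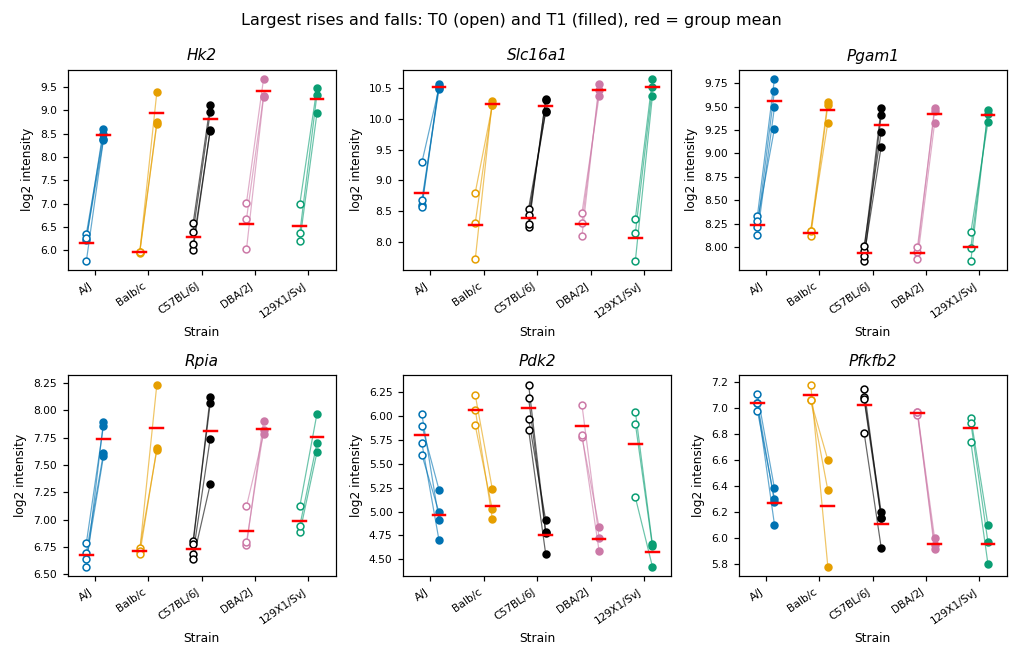
Log2 intensity (vertical axes, each with its own range) of Hk2, Slc16a1, Pgam1, Rpia, Pdk2 and Pfkfb2 on each of the 34 arrays by strain, with T0 open, T1 filled, lines between arrays of the same replicate number and red bars at group means. Hk2 lies between 5.78 and 7.02 at T0 and between 8.37 and 9.68 at T1, and Pdk2 lies at 5.23 or lower on the T1 arrays.

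In lower glycolysis 4 genes rose, 2 fell and 1 was not called for the mean change. Pgam1, which moves the phosphate of phosphoglycerate, ran from 7.85 to 8.33 at T0 (median 8.01) and from 9.07 to 9.80 at T1 (median 9.45). It rose by 1.38 ± 0.05, or 2.60-fold, without overlap (adjusted p = 1.01e-21). Its response was 1.31 to 1.48 in the 5 strains. Its 3 probe sets had changes of 1.37 to 1.38 and may pick up near-identical copies of the gene. Eno2, an enolase best known from neurons, rose by 0.50 ± 0.08 (adjusted p = 5.46e-07), whereas Eno3, the muscle enolase, fell by 0.38 ± 0.07 (adjusted p = 2.46e-05). Pkm, pyruvate kinase, rose by 0.20 ± 0.05 (adjusted p = 4.94e-04), and its second probe set by 0.28. Pgk1, the first ATP-yielding kinase, changed by -0.00 (adjusted p = 0.9476), with -0.00 to -0.01 over 3 probe sets. Near-identical copies of Pgk1 and Pkm elsewhere in the genome could bind the same probes, so both values are uncertain.

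The lactate dehydrogenase subunits also split. Ldha, whose subunit favours the making of lactate, rose by 0.25 ± 0.05 (adjusted p = 1.07e-05), but by 0.09 (adjusted p = 0.0662) after the second quantile normalization. Ldhb, whose subunit favours the use of lactate, ran from 6.10 to 6.94 at T0 (median 6.42) and from 5.51 to 6.06 at T1 (median 5.79). Every T1 array lay below every T0 array, and the fall was 0.69 ± 0.07 on the log2 scale (mean change -0.69, adjusted p = 1.29e-10). A second, dimmer probe set of Ldhb (mean 5.67 against 6.11) changed by -0.42. Whether either set also binds copies of the gene elsewhere was not tested.

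Among the enzymes that steer phosphofructokinase and pyruvate dehydrogenase, 2 rose and 4 fell. Pfkfb2, one of the bifunctional enzymes that make and break fructose 2,6-bisphosphate, ran from 6.74 to 7.18 at T0 (median 7.04) and from 5.78 to 6.60 at T1 (median 6.10). It fell by 0.89 ± 0.06 with no overlap (adjusted p = 1.93e-15). Pfkfb4 of the same family fell by 0.48 ± 0.06 (adjusted p = 1.89e-08). Pfkfb3, the form with the strongest kinase activity, rose by 0.15 ± 0.06 (adjusted p = 0.0124), with responses of 0.40 (A/J), 0.39 (C57BL/6J) and 0.25 (Balb/c) but -0.15 (129X1/SvJ) and -0.11 (DBA/2J). The F test adjusted p for a difference of the Pfkfb3 response between strains was 0.0673, or 0.0279 with strain and replicate number as a block. Tigar, a phosphatase that lowers fructose 2,6-bisphosphate, rose by 0.22 ± 0.06 (adjusted p = 8.75e-04).

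Pdk2, a kinase that switches off pyruvate dehydrogenase, ran from 5.15 to 6.33 at T0 (median 5.92) and from 4.43 to 5.23 at T1 (median 4.79). The times met only at the dimmest T0 array, 129X1/SvJ replicate 4. Pdk2 fell by 1.10 ± 0.07 (adjusted p = 9.63e-15) in 17 of 17 pairs, but all T1 values lay under the limit of 5.327, so the size of the fall is not exact. Its relative Pdk1 fell by 0.21 ± 0.08 (adjusted p = 0.0248), a mean over strains that moved in opposite directions. That call was lost without Balb/c T1 replicate 1 (adjusted p = 0.0528), Balb/c T1 replicate 4 (0.0603) or DBA/2J T0 replicate 2 (0.0549), and after the second quantile normalization (-0.04, adjusted p = 0.6608).

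In the pentose phosphate pathway 2 genes rose, 2 fell and 2 were not called for the mean change. Rpia, which makes ribose 5-phosphate, the sugar of nucleotides, ran from 6.57 to 7.12 at T0 (median 6.77) and from 7.32 to 8.24 at T1 (median 7.78). It rose by 1.00 ± 0.07 without overlap (adjusted p = 1.23e-14), which lay just under 1 log2 unit at 2.00-fold. Tkt, transketolase, rose by 0.35 ± 0.07 (adjusted p = 2.51e-05). Taldo1, transaldolase, the other enzyme that returns pentoses to glycolysis, fell by 0.56 ± 0.05 (adjusted p = 5.14e-11) in 17 of 17 pairs. Of the oxidative arm, Pgd, 6-phosphogluconate dehydrogenase, fell by 0.21 ± 0.05 (adjusted p = 2.04e-04). Pgls, the lactonase before it, changed by 0.00 (adjusted p = 0.9755), and Rpe, the pentose epimerase, by 0.03 (adjusted p = 0.6496). Under the second quantile normalization, which moved the median change of all genes from -0.07 to 0.02, Pgls changed by 0.23 (adjusted p = 1.29e-04) and Rpe by 0.20 (adjusted p = 9.14e-04).

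By size, 3 of the 31 genes rose by at least 1 log2 unit (Hk2, Slc16a1 and Pgam1), against 6.23% of all genes. A single gene, Pdk2, fell by as much, against 9.58% of all genes. All T1 arrays lay above all T0 arrays for 6 members (Slc2a1, Slc16a1, Hk2, Pfkp, Pgam1 and Rpia), against 9.28% of all genes, and below them for 2 (Ldhb and Pfkfb2), against 17.5%. The same 6 genes were called higher in each of the 5 strains, against 13.8% of all genes. Slc16a3, Ldhb, Pfkfb2, Pfkfb4 and Pdk2 were called lower in each strain, against 25.6%.

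Within single strains, similar numbers of members were called. In A/J 9 rose and 9 fell, where 56.6% of all genes were called (20.3% higher, 36.3% lower). C57BL/6J had 10 up and 10 down, where 63.7% of all genes were called (25.1% and 38.6%). DBA/2J had 11 up and 9 down, where 60.0% of all genes were called (23.8% and 36.2%). For 129X1/SvJ the counts were 12 and 7, where 56.3% of all genes were called (21.6% and 34.7%). Balb/c had 13 up and 7 down, where 54.7% of all genes were called (20.6% and 34.1%). The split of directions moved with the scaling. Under the second quantile normalization C57BL/6J had 15 up and 8 down, and DBA/2J had 12 up and 5 down. When Balb/c T1 replicate 2 was left out, 14 members were called in Balb/c in place of 20, and the count for the mean change stayed at 27.

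Several genes with smaller mean rises were called in some strains and not in others. The response of Pkm was 0.45 in DBA/2J and 0.30 in 129X1/SvJ, both called, and 0.02, 0.15 and 0.05 in A/J, Balb/c and C57BL/6J. Tigar responded by 0.55 in DBA/2J and 0.39 in 129X1/SvJ, both called, and by -0.03 to 0.15 in the others. Ldha was called in Balb/c (0.28), DBA/2J (0.30) and 129X1/SvJ (0.52) and changed by 0.07 and 0.09 in A/J and C57BL/6J. The F test did not call a difference in response between strains for Pkm (adjusted p = 0.2450), Tigar (0.1386) or Ldha (0.1707), which neither shows that the strains differed nor that they were alike. With strain and replicate number as a block, the F test called Tigar (adjusted p = 0.0087) but not Pkm or Ldha.

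The comparison of strains asks how genetic background sets these genes in resting and stimulated cells. Each gene was read from 1 probe set, and whether its probes bind alike in all 5 strains was not tested. A strain difference in binding thus cannot be told apart from one in expression. Pdk1 stood apart, with strain means that spanned 1.91 log2 units at T0 and 1.94 at T1. At T0, 7 of the 31 members were called by the limma F test over strains, against 18.5% of all genes. At T1, 9 were called, against 31.0% of all genes. The response differed between strains for 3 members, against 6.92% of all genes. The 7 genes at T0 were Pdk1, Eno2, Tkt, Pfkm, Pfkfb3, Slc16a1 and Pfkp, the 9 at T1 were Pdk1, Tkt, Taldo1, Pgd, Eno2, Hk2, Slc2a3, Tigar and Slc2a1, and the 3 for the response were Pdk1, Pgd and Pfkp.

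**Figure D3:**
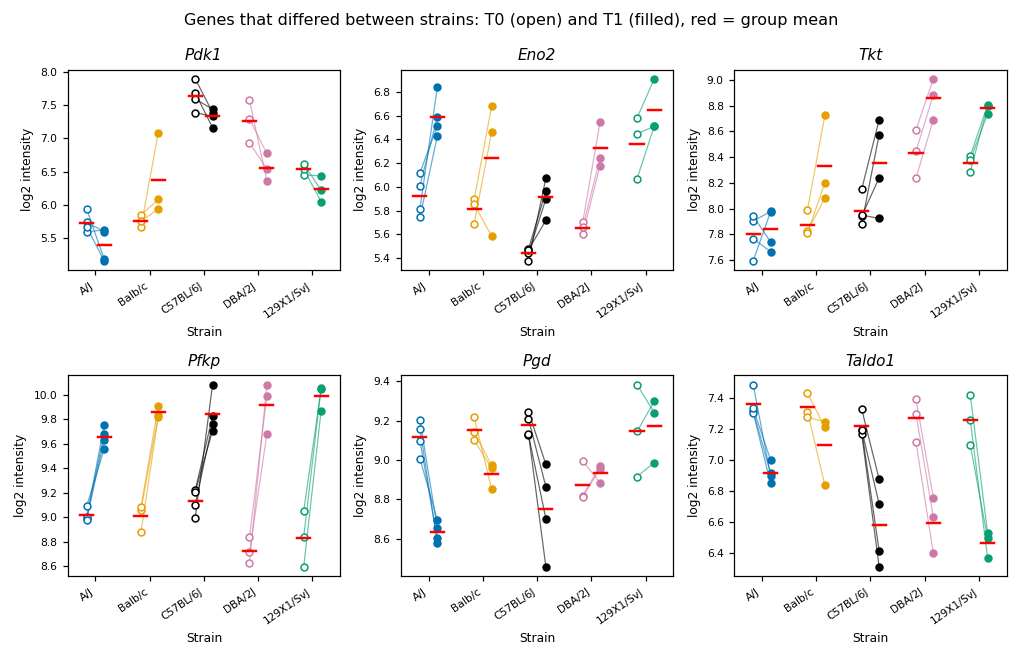
Log2 intensity (vertical axes, each with its own range) of Pdk1, Eno2, Tkt, Pfkp, Pgd and Taldo1 on each of the 34 arrays by strain, with T0 open, T1 filled, lines between arrays of the same replicate number and red bars at group means. Pdk1 lies at 7.16 or higher on all C57BL/6J arrays and at 5.94 or lower on all A/J arrays.

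Pdk1 in A/J had T0 values of 5.74, 5.94, 5.59 and 5.67 and T1 values of 5.60, 5.19, 5.62 and 5.16. In Balb/c the T0 values were as low, at 5.85, 5.67 and 5.75. In C57BL/6J they were 7.68, 7.90, 7.39 and 7.59 at T0 and 7.16, 7.39, 7.33 and 7.44 at T1. The C57BL/6J arrays overlapped with no A/J, Balb/c or 129X1/SvJ array at either time. DBA/2J came next, with 7.58, 6.93 and 7.29 at T0 and 6.36, 6.54 and 6.77 at T1, and 129X1/SvJ lay between, with 6.45, 6.54 and 6.62 at T0 and 6.44, 6.05 and 6.22 at T1. The order of the T0 means was thus C57BL/6J, DBA/2J, 129X1/SvJ, Balb/c and A/J, with the arrays of the first pair and of the last pair overlapping. The F test over strains had an adjusted p of 4.47e-10 at T0 and 4.53e-08 at T1. Against the mean of the other 4 strains, T0 cells of C57BL/6J were 1.32 ± 0.14 (SE) higher (adjusted p = 4.43e-08) and those of DBA/2J 0.85 ± 0.16 higher (adjusted p = 3.90e-04). The differences were -1.07 for A/J (adjusted p = 3.42e-06) and -1.04 for Balb/c (adjusted p = 4.41e-05).

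The Pdk1 response differed between strains (range 1.32, adjusted p = 0.0215). After stimulation the Balb/c arrays read 6.08, 7.09 and 5.94, each above the Balb/c T0 arrays, and the response was 0.61. Elsewhere it was -0.71 (DBA/2J), -0.34 (A/J), -0.31 (C57BL/6J) and -0.30 (129X1/SvJ). The Balb/c response was 1.03 ± 0.22 above the mean of the other strains (adjusted p = 0.0176). The value of 7.09 came from replicate 2, the array that stood apart from its group and whose erythroid marker mean was 6.05, against 8.41 and 8.75 on the other Balb/c T1 arrays. The part of that difference in the result was not tested. Without that array the Balb/c response was 0.67 above the others (adjusted p = 0.0722) and the F test had an adjusted p of 0.0539. The F test also passed the threshold no longer without Balb/c T0 replicate 2 (adjusted p = 0.0688) or Balb/c T0 replicate 4 (0.0511), and the single contrast gave 0.0943 and 0.0600 without them. Under the second quantile normalization the F test had an adjusted p of 0.0736.

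Eno2 at T0 was lowest in C57BL/6J, with 5.48, 5.38, 5.44 and 5.47, and highest in 129X1/SvJ, with 6.58, 6.07 and 6.45. These arrays did not overlap, and the F test had an adjusted p of 0.0016. Against the other 4 strains, 129X1/SvJ was 0.66 higher (adjusted p = 0.0016) and C57BL/6J lay at -0.50 (adjusted p = 0.0085). C57BL/6J stayed lowest at T1, at 5.91 ± 0.15 (SD, n = 4) against 6.24 to 6.64 for the other group means, with a contrast of -0.54 (adjusted p = 0.0047). The single array of Balb/c T1 replicate 2, at 5.59, lay below the C57BL/6J arrays.

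Tkt was lowest in A/J and highest in DBA/2J at both times. The A/J arrays read 7.90, 7.94, 7.59 and 7.77 at T0 and 7.98, 7.74, 7.97 and 7.66 at T1. The DBA/2J arrays read 8.61, 8.45 and 8.24 at T0 and 9.01, 8.89 and 8.69 at T1, all above the A/J arrays of the same time. The range of strain means was 0.63 at T0 (adjusted p = 0.0032) and 1.02 at T1 (adjusted p = 2.01e-05). At T1 the A/J difference from the other 4 was -0.74 (adjusted p = 2.77e-05). The Tkt response was 0.04 in A/J and 0.38 to 0.46 in the other strains, and the F test did not call it as different between strains. The strains with the highest Tkt means at T0, DBA/2J (8.43) and 129X1/SvJ (8.36), also had the highest B cell marker means at T0 (8.36 and 8.40), and A/J had the lowest of both (7.80 and 7.37). The part of this in the result was not tested.

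Hk2 was not called over strains at T0 and was called at T1 (range 0.96, adjusted p = 0.0046). The F test did not call its response as different between strains (range 0.68, adjusted p = 0.5073). The A/J arrays at T1 read 8.50, 8.37, 8.61 and 8.38, below every DBA/2J array (9.29, 9.68 and 9.31) and every 129X1/SvJ array (9.34, 8.94 and 9.48). The A/J difference from the other 4 was -0.64 (adjusted p = 0.0054). A/J was in turn the strain with the highest Slc2a3 at T1, 8.57 ± 0.16 (SD, n = 4) against 7.94 to 8.18 for the other group means, 0.52 above their mean (adjusted p = 0.0034). The F test for Slc2a3 at T1 (range 0.63, adjusted p = 0.0102) was lost without A/J T1 replicate 4 (adjusted p = 0.0547). For the Slc2a3 response the F test called no difference between strains (adjusted p = 0.1869), but did without Balb/c T1 replicate 2 (adjusted p = 0.0036).

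Slc16a1 at T0 ranged over 0.72 (adjusted p = 0.0265), with A/J at 8.60, 8.57, 8.68 and 9.29. The arrays of 129X1/SvJ, at 8.14, 7.69 and 8.37, were the lowest by mean. A/J lay 0.53 above the other strains (adjusted p = 0.0093), but 0.36 (adjusted p = 0.1349) without its replicate 5, the brightest. The F test was lost without that array (adjusted p = 0.1783) or without 129X1/SvJ T0 replicate 2 (0.0757). Erythroid markers moved with Slc16a1 on some of these T0 arrays and not on others. Their mean was 9.01 on A/J replicate 5, against 7.99 to 8.50 on the other A/J arrays, and 5.29 over the 129X1/SvJ arrays. In Balb/c, Slc16a1 read 8.31, 7.72 and 8.80 where the erythroid mean was 7.93, 6.58 and 8.55. By contrast, A/J replicate 4 had the lowest erythroid mean of A/J (7.99), with Slc16a1 at 8.68 against 8.60 and 8.57 on replicates 1 and 2. C57BL/6J had a higher Slc16a1 mean than DBA/2J (8.38 against 8.29) with a lower erythroid mean (6.74 against 8.00). The part of the erythroid markers in the result was not tested. At T1 the strain means of Slc16a1 lay within 10.21 to 10.52.

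Pfkp had a response of 1.19 in DBA/2J and 1.16 in 129X1/SvJ, against 0.64 to 0.85 in the other strains (range 0.55, adjusted p = 0.0283). The T0 arrays of DBA/2J, at 8.63, 8.84 and 8.71, lay below those of C57BL/6J (8.996, 9.10, 9.22 and 9.21) and A/J (8.99, 9.002, 8.98 and 9.09). At T1, DBA/2J read 10.08, 9.99 and 9.68 and 129X1/SvJ 10.05, 9.87 and 10.05. The larger response thus started from a lower level, with a T0 range of 0.41 (adjusted p = 0.0317). The call on the response was lost without a T0 array of DBA/2J, replicate 2 (adjusted p = 0.0638) or 4 (0.0525), a T1 array of DBA/2J, replicate 2 (0.0680) or 3 (0.0620), 129X1/SvJ T1 replicate 1 (0.0507) or 129X1/SvJ T1 replicate 4 (0.0539), and with no limit on dim genes (0.0534). The T0 call was lost without C57BL/6J replicate 2 (0.0529), 3 (0.0782) or 4 (0.0719), or DBA/2J replicate 2 (0.1170) or 4 (0.0849).

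The Pgd response had the same order of strains as that of Pfkp, from a fall in A/J (-0.48) and C57BL/6J (-0.43), both called, to values of 0.03 for 129X1/SvJ and 0.06 for DBA/2J (range 0.54, adjusted p = 0.0278). The A/J arrays read 9.20, 9.10, 9.01 and 9.16 at T0 and 8.66, 8.60, 8.70 and 8.58 at T1, with no overlap. The DBA/2J arrays read 8.82, 8.99 and 8.81 at T0 and 8.97, 8.88 and 8.96 at T1, which overlapped. At T1 A/J lay at -0.32 against the other strains (adjusted p = 0.0065), and the F test had an adjusted p of 0.0020. The call on the response was lost without a T0 array of DBA/2J, replicate 2 (adjusted p = 0.0580) or 4 (0.0584), its T1 replicate 2 (0.0560), 129X1/SvJ T1 replicate 1 (0.0509) or 129X1/SvJ T1 replicate 4 (0.0522), and with no limit on dim genes (0.0528). For both Pfkp and Pgd, DBA/2J and 129X1/SvJ were also the strains with the highest B cell marker means at T0 (8.36 and 8.40) and the lowest CD4 T cell marker means at T1 (8.77 and 8.78), and the part of this in the result was not tested.

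Taldo1 was called over strains at T1 and not at T0 (T1 range 0.63, adjusted p = 6.17e-04), from 6.46 ± 0.08 (SD, n = 3) in 129X1/SvJ to 7.10 ± 0.23 (SD, n = 3) in Balb/c. Its response was not called as different between strains, but it was without Balb/c T1 replicate 2 (range 0.68, F test adjusted p = 0.0485). Balb/c lay 0.46 above the others (adjusted p = 0.0115), which was lost without its T1 replicate 1 (0.0833) or replicate 4 (0.1101). Tigar at T1 was highest in DBA/2J, at 7.77 ± 0.10 (SD, n = 3), with a range of 0.51 (adjusted p = 0.0218). That call was lost without C57BL/6J T1 replicate 3 (0.0532), DBA/2J T1 replicate 2 (0.0735) or DBA/2J T1 replicate 3 (0.0798). Slc2a1 at T1 was highest in 129X1/SvJ, at 9.61 ± 0.05 (SD, n = 3), with a range of 0.38 (adjusted p = 0.0237). It was lost without A/J T1 replicate 5 (0.0508), 129X1/SvJ T1 replicate 1 (0.0620) or 129X1/SvJ T1 replicate 4 (0.0731).

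Pfkm at T0 had a range of 0.46 (adjusted p = 0.0121), from 6.01 ± 0.07 (SD, n = 3) in 129X1/SvJ to 6.48 ± 0.17 (SD, n = 3) in Balb/c. At T1 the F test did not call Pfkm, but did when certain single arrays were left out, such as Balb/c T1 replicate 2 (range 0.55, adjusted p = 0.0038). Pfkfb3 at T0 had a range of 0.48 (adjusted p = 0.0241), with A/J lowest at 6.84 ± 0.13 (SD, n = 4) and 129X1/SvJ highest at 7.32 ± 0.15 (SD, n = 3). The Pfkfb3 call was lost without A/J T0 replicate 4 (0.0887), 129X1/SvJ T0 replicate 1 (0.0571) or 129X1/SvJ T0 replicate 4 (0.0744). No single strain differed from the rest for Pfkm at T0 at an adjusted p under 0.05.

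The neighbours of these pathways were read from lists of genes outside the 37. Beside their counts stand the 36.0% of all genes called higher and the 46.3% called lower. Of 19 other genes of glycolysis and pyruvate tested, 5 rose and 9 fell, with a median change of -0.07. The glucose transporter Slc2a6 (-1.18 ± 0.07), the phosphoglucomutase Pgm1 (-1.10 ± 0.07) and the kinase Pdk3 (-0.70 ± 0.05) fell, and the ADP-dependent glucokinase Adpgk rose by 0.73 ± 0.05. Of 13 other genes around pentose phosphates and nucleotide sugars, 6 rose and 7 fell (median -0.26). Uap1 (1.38 ± 0.05), which makes UDP-N-acetylglucosamine, and Ppat (1.25 ± 0.05), which starts purine synthesis from phosphoribosyl pyrophosphate, rose, as did Pgm3 (0.80 ± 0.06). The synthetases of that pyrophosphate split, with Prps1 up by 0.64 ± 0.05 and Prps2 at -0.64 ± 0.05.

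The branch from 3-phosphoglycerate to serine and folate-bound carbon had 6 of 7 genes up and none down, with a median of 1.36 beside 0.15 for the 31 members and -0.07 for all genes. Shmt1 rose by 2.57 ± 0.09, Psat1 by 2.33 ± 0.07, Mthfd2 by 1.96 ± 0.06 and Shmt2 by 1.36 ± 0.06, while Psph changed by 0.06 (adjusted p = 0.4332). In the tricarboxylic acid cycle, 11 of 17 genes fell and 4 rose (median -0.26), a share called near the 82.3% of all genes. Sdha (-0.98 ± 0.06), Mdh1 (-0.75 ± 0.04), Idh2 (-0.72 ± 0.06) and Idh3g (-0.69 ± 0.05) fell, and Idh3a rose by 0.65 ± 0.07. Of 25 regulators of glycolysis genes, 7 rose and 16 fell (median -0.42). Myc rose by 3.22 ± 0.06 and Irf4 by 2.55 ± 0.06, whereas Mxd4, which competes with Myc for Max, fell by 1.70 ± 0.07. Txnip, which holds back glucose uptake, fell by 1.33 ± 0.07.

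**Figure D4:**
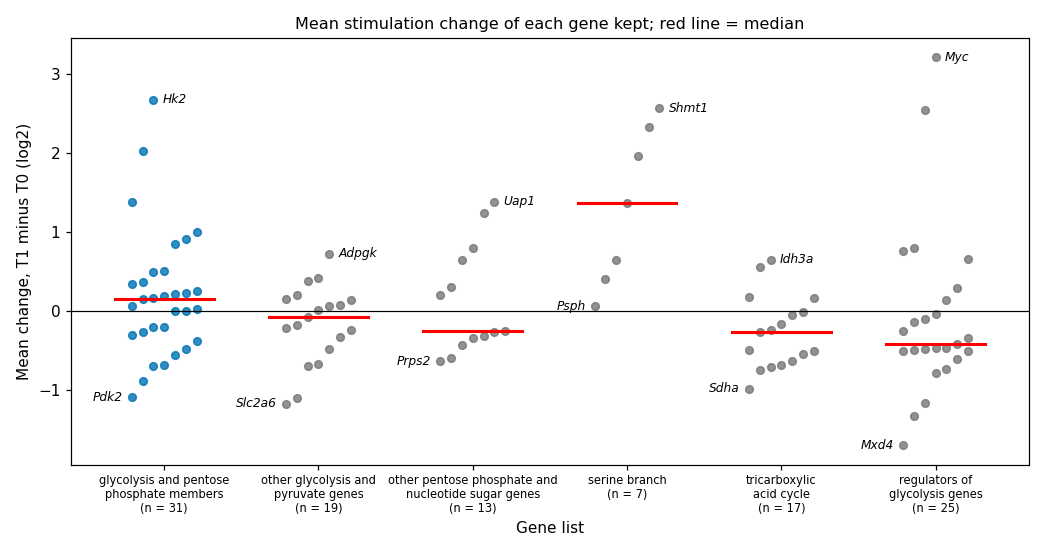
Mean change from T0 to T1 (log2, vertical axis) of each gene tested in the 31 members and 5 lists of neighbouring genes, 1 point per gene, with the red line at the list's median. The serine branch has the highest median, 1.36, and the members span from -1.10 (Pdk2) to 2.68 (Hk2).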

How the data were processed

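Per the labels, the authors processed 34 Affymetrix arrays with RMA, which corrects background, quantile normalizes the arrays and sums probes per probe set, and deposited log2 intensities for 35556 probe sets. The sources used here give no version, probe definitions or genome build. Probe sets with 1 symbol (21789) gave 19938 genes, each read from its brightest set. For Hk1 the second set was used, a choice made after seeing the data. Genes whose highest group mean reached 5.327, the median of all values, were kept (11413). The tests used limma 3.58.1 (R 4.3.3) with 1 model of 10 groups over 34 arrays (24 residual degrees of freedom). Contrasts were T1 minus T0 per strain and averaged, moderated F tests over strains for each time and for the response, and each strain against the mean of the other 4. Calls were made under a Benjamini-Hochberg adjusted p of 0.05 over all genes kept. The code was tested on simulated data. The members and the lists were chosen with earlier results of these data known. All members are named, and values by array are given for called changes of at least 1 log2 unit and for the largest strain ranges. From each other list up to 4 called genes with the largest changes are named. Exceptions named after their values were seen are Prps1, Prps2, Psph, Idh3a, Cd3g and Cd4. The number of arrays limits the precision. Alternatives were another normalization, no filter, other probe sets, trended and robust moderation, replicate numbers as a block or taken apart, and leaving out each array.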

Additional observations from a re-analysis of the deposited data

Results flagged for a closer look

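Among 124 groups of 4 arrays (31 genes in the 4 groups of A/J and C57BL/6J), 8 held an array set apart from the other 3 by Dixon's test, where chance gives about 1 in 20. Slc16a1 read 9.29 on A/J T0 replicate 5, against 8.57 to 8.68. Slc16a3 read 7.73 on C57BL/6J T0 replicate 4, against 7.13 to 7.20. Hk1 read 8.01 on A/J T0 replicate 1, against 7.79 to 7.80, and Taldo1 read 7.48 on the same array, against 7.30 to 7.33. Tpi1 read 8.45 on A/J T1 replicate 2, against 8.20 to 8.24. On C57BL/6J T0 replicate 3, Pgk1 read 9.79 against 9.61 to 9.62, and Taldo1 read 7.32 against 7.16 to 7.19. Pfkfb2 read 5.92 on C57BL/6J T1 replicate 1, against 6.15 to 6.20, the only low value of the 8.

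The response differed between strains in the limma F test for Pdk1 (range 1.32, adjusted p = 0.0215), Pgd (range 0.54, adjusted p = 0.0278) and Pfkp (range 0.55, adjusted p = 0.0283). Each of these calls was lost when certain single arrays were left out.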

How the results depend on the processing

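No alternative turned the direction of a called mean change or of a called contrast of a single strain against the others. Stimulation calls within single strains were compared only as counts. Of the 31 mean changes, the side of the threshold held for 31 with no filter, with the mean of all probe sets, with the least bright probe set, with trended and robust moderation and with the replicate block of strain and number, which left the count at 27. It held for 25 under a second quantile normalization. Hk1 was lost within replicate numbers 1 and 2 (0.01, adjusted p = 0.8785), as were Hk3 (0.20, adjusted p = 0.0628) and Pkm (adjusted p = 0.0745). Pfkfb3 (0.06, adjusted p = 0.5319) and Pdk1 (-0.20, adjusted p = 0.0702) were lost within numbers 3 to 5. These within-number fits hold fewer arrays. Numbers 3 to 5 leave a single array at each time in Balb/c and 129X1/SvJ, and numbers 1 and 2 do so in DBA/2J.

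Counts of members called in Balb/c and 129X1/SvJ within numbers 3 to 5, and in DBA/2J within numbers 1 and 2, are not given. They would rest on a single array at each time. Strain calls at T0, 7 at first, became 12 under the second quantile normalization, 1 within numbers 1 and 2 and 2 within numbers 3 to 5, and those at T1 became 2 within numbers 1 and 2, from 9. With number as a block term they were 10 at T0 and 11 at T1, and the T0 call of Slc16a1 was lost (adjusted p = 0.0561). Calls on the response, 3 at first, became 1 with no filter and 6 with the replicate block of strain and number, which added Tigar (adjusted p = 0.0087), Pfkfb3 (0.0279) and Tpi1 (0.0326). In limma fits within numbers 1 and 2 and within numbers 3 to 5 they were 0, with 4 and 5 of 32 members past an unadjusted p of 0.05, against 11 of 31 in all arrays. Of all genes, 112 of 11473 and 175 of 11665 were called for the response in these fits, against 790 of 11413 in all arrays. For the other settings the share of all genes called is not given, so those counts are not results about the members. The median change of 0.1548 became 0.0762 within numbers 1 and 2, 0.0669 within numbers 3 to 5 and 0.0609 with the brightest probe set for Hk1. The last and the least bright probe sets were chosen after seeing the data.

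Leaving out each array in turn gave 26 to 28 members for the mean change, 18 to 20 in A/J, 14 to 20 in Balb/c, 18 to 22 in C57BL/6J, 17 to 21 in DBA/2J and 13 to 20 in 129X1/SvJ. It gave 6 to 9 for strain at T0, 8 to 11 at T1 and 1 to 4 for the response, with 1 left without DBA/2J T1 replicate 2, DBA/2J T0 replicate 4 or 129X1/SvJ T1 replicate 4. Leaving out Balb/c T1 replicate 2 gave 11 at T1 and 4 for the response. That fit added Pfkm and Pfkfb2 at T1 and Slc2a3 and Taldo1 for the response, and lost the Pdk1 response. The median change ran from 0.1149 to 0.1664.

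The main model did not take the replicate numbers as pairs, whereas the block of strain and number given above did. The deviations of same-numbered T0 and T1 arrays correlated at -0.08 to 0.47, and 13 of 17 correlated best with their own number. Between strains at the same time, the median r was 0.24 for arrays of the same number (54 pairs) and -0.10 for other numbers (176 pairs). The strains did not hold the same numbers, so number and strain are partly confounded. Strain counts with number as a block term are given above. Genes whose group means lie under the limit, such as Pdk2 at T1, are not shown to lie above background.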

Other observations

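Bpgm, which makes 2,3-bisphosphoglycerate and is best known from red cells, had a range of strain means at T0 of 2.81, above the 1.91 of Pdk1, the widest of the 31 genes tested. Against the mean of the other 4 strains, 129X1/SvJ lay at -2.27 at T0 (limma adjusted p = 2.98e-04) and -3.39 at T1 (adjusted p = 1.92e-06), and A/J lay 1.25 higher at T0 (adjusted p = 0.0366) and 1.74 higher at T1 (adjusted p = 0.0019). The erythroid marker mean was also lowest in 129X1/SvJ (5.29 at T0) and highest in A/J (8.40 at T0), and its part in the Bpgm difference was not tested. Bpgm was chosen after its values were seen.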
